A study of Mus musculus with 4 samples.

Results

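The 10 genes described here encode leukocyte integrin chains and the proteins that switch them on, namely the alpha4 chain *Itga4* with its beta partners *Itgb1* and *Itgb7*, the beta2 family of *Itgb2*, *Itgal*, *Itgam*, *Itgax* and *Itgad*, and the tail binding activators *Fermt3* (kindlin-3) and *Tln1* (talin-1). They were taken by symbol from a deposited table of 54532 genes, and all 10 passed the expression filter that left 16451 genes for testing. The libraries came from TAMs (tumor-associated macrophages) of NB9464 tumors, which grow from a mouse neuroblastoma line with amplified *MYCN*, in C57BL/6 mice given no treatment and ended on day 40. Of the 4 libraries, M7 and M8 are labelled SYK WT and M9 and M10 are labelled SYK KO. Both genotypes came from crosses between mice with floxed *Syk* and mice with Cre recombinase under the lysozyme M promoter. Which of these alleles the SYK WT mice carry is not given in the sources used here. The promoter is active in myeloid cells, so that *Syk* in other cells of the tumor is not a target. Cells were collected on magnetic beads against CD11b and F4/80. CD11b is the product of *Itgam* and F4/80 that of *Adgre1*, so the levels of both genes were tied to the collection of the cells. The labels also name BMDMs (bone marrow derived macrophages) as the source of RNA and an adoptive transfer in the file title, and the methods describe triplicates on another instrument, which was not resolved. The labels do not say whether libraries of one genotype came from separate mice, so the p-values measure the spread between these libraries.

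Integrins are pairs of an alpha and a beta chain that span the membrane. In a resting leukocyte they are bent and bind weakly, and a signal inside the cell loads Rap1, which brings talin-1 and kindlin-3 to the tail of the beta chain and opens the receptor. Once bound to a ligand, the pair signals back through Src family kinases, ITAM adaptors and Syk. Alpha4 pairs with beta1 to bind VCAM-1 and fibronectin and with beta7 to bind MAdCAM-1. The beta2 chain pairs with alphaL (LFA-1), alphaM (CD11b, Mac-1), alphaX (CD11c) and alphaD, and these receptors bind ICAMs, complement fragments and, for alphaD, VCAM-1. Beta1 and talin-1 are made by nearly every cell type, whereas the beta2 chain and kindlin-3 are marks of blood cells.

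Promoters of 7 of the 10 genes were found in RefSeq (build GRCm38.p6), those of *Itga4*, *Itgb1*, *Itgb7*, *Itgam*, *Itgax*, *Fermt3* and *Tln1*. The stretches just before the start of 3 genes that were called higher in the libraries labelled SYK KO and of *Itgb1*, which was not, are shown to set the letters of their promoters side by side. Each is 150 bases, 5′ to 3′ on the strand of the gene. Capitals mark GAGGAA (the core of PU.1 type ETS sites), TGTGGT (a RUNX core) and GGGCGG (a GC box of Sp1 type), searched on both strands. The positions are chr7:128062490-128062639 (plus strand) for *Itgam*, chr19:7019470-7019619 (minus strand) for *Fermt3*, chr2:79255276-79255425 (plus strand) for *Itga4* and chr8:128685504-128685653 (plus strand) for *Itgb1*, whose first capitals are the end of a GC box that begins 1 base earlier.
Itgam: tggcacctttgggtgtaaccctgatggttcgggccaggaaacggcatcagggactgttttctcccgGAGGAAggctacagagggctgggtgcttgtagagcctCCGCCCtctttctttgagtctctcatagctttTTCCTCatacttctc
Fermt3: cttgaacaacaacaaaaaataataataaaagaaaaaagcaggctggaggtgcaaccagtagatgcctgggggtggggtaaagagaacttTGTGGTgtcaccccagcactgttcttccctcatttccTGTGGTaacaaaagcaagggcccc
Itga4: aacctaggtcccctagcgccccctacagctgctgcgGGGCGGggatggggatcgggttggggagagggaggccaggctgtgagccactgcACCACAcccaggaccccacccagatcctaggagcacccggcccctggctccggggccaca
Itgb1: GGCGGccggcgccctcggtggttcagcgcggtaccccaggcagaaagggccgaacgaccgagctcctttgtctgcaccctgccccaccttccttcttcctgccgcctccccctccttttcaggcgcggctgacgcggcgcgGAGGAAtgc

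Over the whole window of 300 bases, which runs from 250 bases before each start, GAGGAA was found in 4 of the 7 promoters, and 28.3% of the 32851 promoters of the reference hold it. *Itgam* held it 3 times and *Itgb1*, *Itgb7* and *Tln1* once. TGTGGT was found in *Itga4*, *Itgax* and *Fermt3*, with 2 copies in *Fermt3*, and 16.8% of all promoters hold it. GGGCGG was found in *Itga4*, *Itgam* and *Itgb1*, against 35.7% of all promoters. These matches are descriptions of the letters and were not tested against the counts.

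Total counts were between 20755886 and 23518045 per library, and a floor of 3 counts was 0.109 to 0.163 CPM, which covers counting error only. *Syk* was used to check the labels. It had 765 and 569 counts in M7 and M8 and 4033 and 2944 in M9 and M10. Under TMM normalization it was thus higher where it should have been deleted (log2 fold change 2.80, SE 0.19, adjusted p = 0.000674 by edgeR). Every direction below is that of the libraries as labelled. The floxed exons cannot be read apart from the whole gene in these counts. The summed level of 10 macrophage markers was 922 and 1312 CPM in SYK WT and 6144 and 10019 CPM in SYK KO, and each of them was called higher. All 6 pan-leukocyte genes (*Ptprc*, *Laptm5*, *Cd53*, *Rac2*, *Dock2* and *Ikzf1*) were also higher, from 165 and 224 CPM to 1820 and 2457 CPM. Set against the macrophage markers of its own library, *Syk* overlapped between the genotypes (log2 difference 0.16). Against the pan-leukocyte genes it was below in both SYK KO libraries (log2 difference -0.50), as were 94.7% of all genes tested. Of 6 fibroblast markers 4 were lower, and these 4 summed to 12217 and 14087 CPM in SYK WT and 3916 and 4740 CPM in SYK KO. The whole fibroblast list was at 12326 and 14207 CPM and then 3981 and 4857 CPM. In bulk libraries fewer cells of a type and less RNA per cell cannot be told apart, and the part of these markers in the results below was not tested. Mitochondrial genes took 2.2% and 2.3% of the counts in M7 and M8 and 6.0% and 15.9% in M9 and M10. Genes detected were 23018 and 23026 in M7 and M8 and 20616 and 19553 in M9 and M10. Both measures thus differed along with the genotype label, and their part in the results was not tested.

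Under TMM normalization 8 of the 10 genes rose in M9 and M10, labelled SYK KO, with an adjusted p under 0.05 and 0 were lower (also 0 at an unadjusted p under 0.05), where 22.7% of all genes tested were called higher and 16.7% lower. Every chain of the beta2 family, *Itga4*, *Itgb7* and *Fermt3* were called, and *Itgb1* and *Tln1* were not. The median log2 fold change of the 10 genes was 3.08 beside 0.02 over all genes tested. Values are given as CPM (counts relative to the TMM-normalized library total), fold changes as log2 of SYK KO over SYK WT, and adjusted p is that of the quasi-likelihood test of edgeR, corrected over all genes tested by the Benjamini-Hochberg method. DESeq2's Wald test, which called 19.5% of its genes higher and 15.9% lower, called the same 8 genes higher and 0 members lower.

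**Figure D1:**
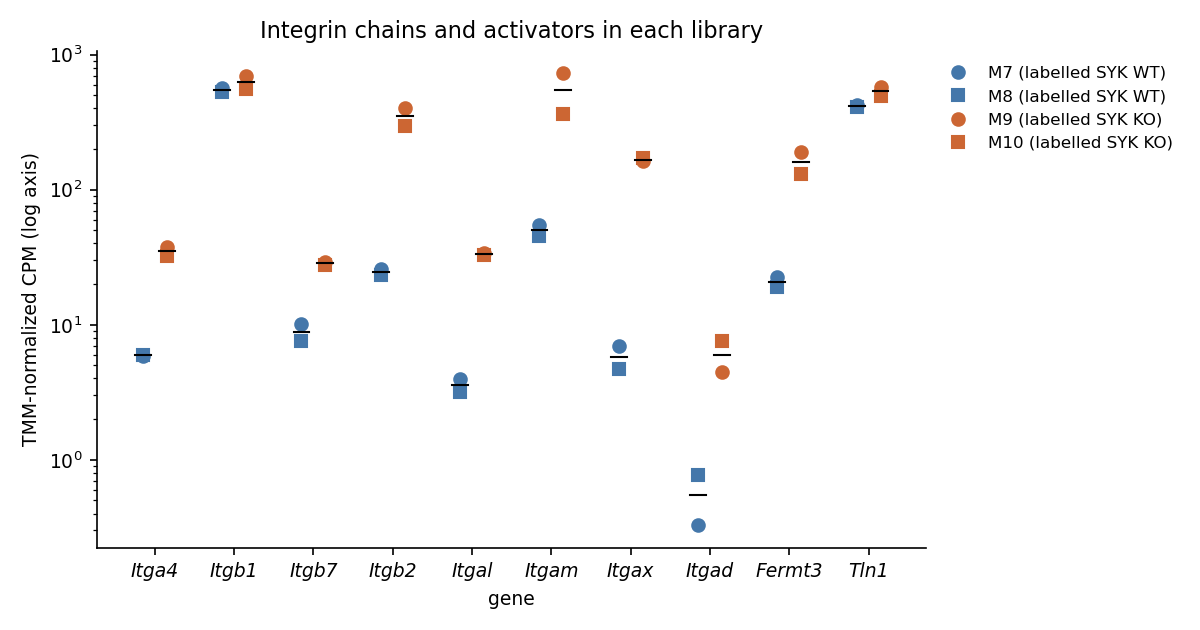
Expression of the 10 genes in each library. The vertical axis is TMM-normalized CPM on a log scale, circles and squares are single libraries, blue for SYK WT and orange for SYK KO, and short bars are the means of 2 libraries. *Itgb1* and *Tln1* sit close together in all 4 libraries, while in the other 8 genes both orange points lie well above both blue points.

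Under TMM the beta2 chain and all 4 of its alpha partners rose. *Itgb2*, the beta chain that all 4 leukocyte alpha chains of this family need to reach the surface, was at 25.8 and 23.5 CPM in M7 and M8 and at 402 and 295 CPM in M9 and M10. The groups were far apart, with a log2 fold change of 3.82 (SE 0.23, adjusted p = 0.000495), which is 14.1-fold. The gene lies at chr10:77530252-77565708 and shares 2.28% of its 31-base words with the processed pseudogene *Gm14699*.

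*Itgax* (CD11c), which pairs with beta2 and marks dendritic cells and some macrophages, had the largest fold change of the 10 genes. It was at 6.92 and 4.67 CPM in the libraries labelled SYK WT and at 163 and 171 CPM in those labelled SYK KO. The difference was 28.7-fold (log2 4.84, SE 0.24, adjusted p = 0.000486). The libraries labelled SYK KO were close to each other, and those labelled SYK WT were less so, at 190 and 115 counts. The cause of that spread was not tested. The summed level of 5 dendritic cell markers was 10.1 and 12.8 CPM in SYK WT and 34.2 and 35.5 CPM in SYK KO, and 3 of the 5 (*Flt3*, *Xcr1* and *Ccr7*) were called higher. Much of that sum was *Zbtb46*, which was not called, and the 3 called genes summed to 2.48 and 1.75 CPM in SYK WT and 26.7 and 25.2 CPM in SYK KO.

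*Itgam*, the CD11b chain of Mac-1, was the most abundant of the 5 alpha chains among the 10 genes by the length-scaled levels given further on. It was at 55.1 and 45.1 CPM in SYK WT and at 727 and 361 CPM in SYK KO. Both SYK KO libraries were above both SYK WT libraries, but M9 stood well above M10. The log2 fold change was 3.44 (SE 0.37, adjusted p = 0.00161). Without M9 the log2 fold change was 2.76 and without M10 it was 3.87. CD11b beads were used to collect the cells, and the part of the collection in this difference was not tested.

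*Itgal*, the alphaL chain of LFA-1 through which lymphocytes and myeloid cells bind ICAM-1, was less abundant. Its levels were 3.97 and 3.17 CPM in SYK WT and 33.8 and 33.0 CPM in SYK KO (log2 fold change 3.22, SE 0.23, adjusted p = 0.000674). *Itgad*, the alphaD chain, was the rarest of the 10 genes, with 9 and 19 counts in M7 and M8 and 92 and 139 counts in M9 and M10. The groups did not overlap, and the log2 fold change of 3.45 had the widest SE of the members, 0.60 (adjusted p = 0.00698).

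*Itgal*, *Itgam*, *Itgax* and *Itgad* all lie on chromosome 7, *Itgal* at chr7:127296260-127335138 and the other 3 in a row at chr7:128062640-128118491, chr7:128129547-128150657 and chr7:128154376-128223816, all on the plus strand. Reads of this row can be hard to assign. The protein coding gene *Gm49368* (chr7:128062683-128128160) lies on the same strand as *Itgam* and covers 3450 of its 5024 exon bases, and 67.2% of the 31-base words of *Itgam* transcripts also occur in *Gm49368*. It had 11 and 6 counts in SYK WT and 315 and 197 in SYK KO, few beside the 1513, 1110, 14986 and 6629 counts of *Itgam*. *Itgax* and *Itgad* share 512 such words, 10.7% of *Itgax* and 11.3% of *Itgad*, so the low count of *Itgad* is less certain than that of *Itgax*. *Itgad* also overlaps 3 genes on the other strand in its exons and the pseudogene *Gm17831*.

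**Figure D2:**
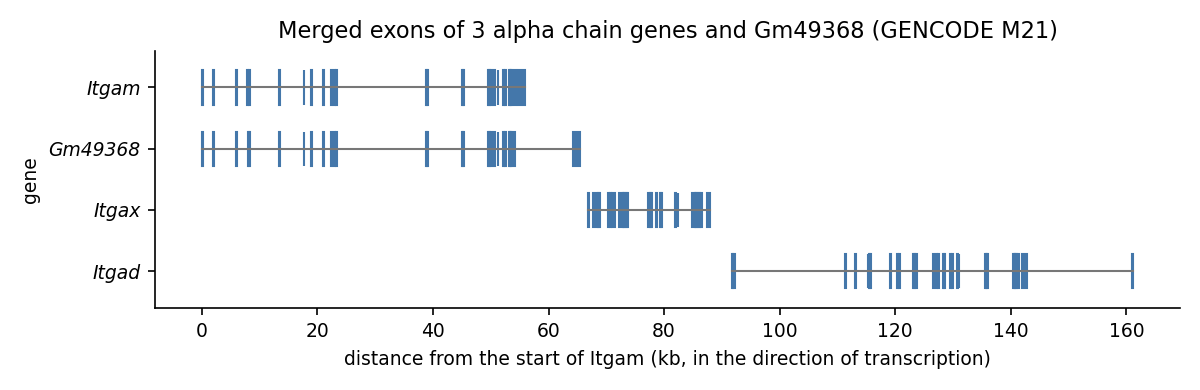
Merged exons (blue boxes) of *Itgam*, *Gm49368*, *Itgax* and *Itgad*, drawn to scale with very short exons widened to stay visible. The horizontal axis is the distance from the start of *Itgam* in kb, and lines are the extent of each gene. The exons of *Gm49368* stack under those of *Itgam* and then run on toward *Itgax*, whereas *Itgax* and *Itgad* overlap neither of them.

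Under TMM alpha4 and beta7 rose, and beta1 was not called. *Itga4*, which guides monocytes and lymphocytes to VCAM-1 on vessels, was at 5.86 and 6.02 CPM in SYK WT and at 37.8 and 32.2 CPM in SYK KO. Its libraries agreed closely within each genotype and the difference was 5.88-fold (log2 2.56, SE 0.20, adjusted p = 0.000834). *Itga4* (chr2:79255426-79333123) shares 1124 exon bases with *Cerkl* on the other strand, which had 1 and 2 counts in SYK WT and 50 and 40 in SYK KO.

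*Itgb7*, which makes the gut homing pair with alpha4, was at 10.2 and 7.64 CPM in SYK WT and at 29.2 and 27.6 CPM in SYK KO (chr15:102215995-102231944). Its log2 fold change of 1.67 (SE 0.22, adjusted p = 0.0030) was the smallest of the 8 genes called. *Itgb1* (chr8:128685654-128733200), the beta chain that most alpha chains of connective tissue cells also use, was at 566 and 526 CPM in SYK WT and at 697 and 555 CPM in SYK KO. The groups overlapped, with a log2 fold change of 0.20 (SE 0.20, adjusted p = 0.471).

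The activators differed in the same way. *Fermt3* (chr19:6998958-7019469), kindlin-3, whose loss leaves blood cells unable to activate integrins, was at 22.7 and 19.1 CPM in SYK WT and at 191 and 130 CPM in SYK KO. That was a 7.67-fold difference (log2 2.94, SE 0.24, adjusted p = 0.000864) with no overlap. *Tln1* (chr4:43531519-43562691), the talin that links beta tails to actin, was at 420 and 407 CPM in SYK WT and at 572 and 495 CPM in SYK KO. Both SYK KO libraries were above both SYK WT libraries, but the log2 fold change of 0.37 did not pass the test (SE 0.18, adjusted p = 0.154). *Tln1* shares 3.35% of its 31-base words with *Creb3* on the other strand, which was at 38.5 to 41.0 CPM in SYK WT and 36.8 to 38.1 CPM in SYK KO.

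Levels of different genes were compared as TPM, the counts per base of merged exon as a share of that sum over the library. In the libraries labelled SYK WT, *Itgb1* was highest at 525.5 ± 41.1 TPM (SD, n = 2), followed by *Tln1* at 166 ± 8.24, *Itgam* at 39.2 ± 6.57, *Itgb2* at 31.7 ± 3.0, *Fermt3* at 14.2 ± 2.12, *Itgb7* at 12.7 ± 2.86, *Itgax* at 4.76 ± 1.43, *Itgal* at 2.14 ± 0.395, *Itga4* at 1.67 ± 0.0146 and *Itgad* at 0.475 ± 0.261 TPM. Both libraries kept each gene above the next one except for *Fermt3* and *Itgb7*, which overlapped. In the libraries labelled SYK KO, *Itgb1* at 301 ± 107 TPM, *Itgb2* at 225 ± 91.6, *Itgam* at 219 ± 141 and *Tln1* at 106 ± 31.8 TPM each overlapped the next gene in this order. *Tln1* did not overlap *Itgb1* or *Itgb2*, and within each library *Itgb1* was above *Itgb2*. *Itgax* followed at 66.9 ± 11.4 TPM and overlapped *Fermt3* at 54.9 ± 25.0 TPM. The order below them was *Itgb7* (19.9 ± 4.76), *Itgal* (9.82 ± 2.13), *Itga4* (4.88 ± 1.51) and *Itgad* (2.48 ± 0.425), with no overlap between neighbors. TPM values depend on the other genes of a library, and unlike the CPM values they carry no TMM factor. *Itgb1* was lower in TPM in SYK KO although its TMM-normalized CPM was not. By library size alone its log2 fold change was -0.33.

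Ratios between the genes within a library do not depend on how libraries are scaled. Counts per base of merged exon were compared for 13 pairs, and in 11 pairs the libraries of the genotypes did not overlap. The smallest p that an exact two-sided permutation test can give with 2 libraries against 2 is 0.333 (0.394 adjusted over 13 pairs), so none could pass. As background, the ratio to *Itgb2* was above in both SYK KO libraries for 0.845% of all genes tested and below in both for 96.4%. The ratios of *Itgal*, *Itgam*, *Fermt3* and *Tln1* to *Itgb2* were below in both, and that of *Itgax* was above. Read the other way around, the pair of *Itgb2* and *Itgb1* also put *Itgb1* below in both. No such share was computed for the other denominators, so the count of 11 was not read as a result about the members.

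The widest gap was between the beta chains. The *Itgb2* to *Itgb1* ratio was 0.0610 and 0.0596 in M7 and M8 and 0.771 and 0.711 in M9 and M10, a 12.3-fold difference with little spread. The *Tln1* to *Itgb2* ratio was 5.07 and 5.40 in SYK WT and 0.443 and 0.522 in SYK KO, 10.9-fold apart, so talin-1 was above beta2 in one genotype and below it in the other. *Itgb1* and *Tln1* thus fell relative to *Itgb2* in both SYK KO libraries, as did 96.4% of all genes tested. These gaps were therefore not read as particular to *Itgb1* or *Tln1*. The *Fermt3* to *Tln1* ratio was 0.0915 and 0.0794 in SYK WT and 0.565 and 0.445 in SYK KO. Against *Itgb2* itself, however, *Fermt3* stood lower in SYK KO, at 0.25 and 0.232 beside 0.464 and 0.429 in SYK WT.

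Among the alpha chains that share beta2, *Itgax* alone was higher per *Itgb2* in both SYK KO libraries. The *Itgax* to *Itgb2* ratio was 0.17 and 0.127 in SYK WT and 0.259 and 0.367 in SYK KO, the pattern held by 0.845% of genes. *Itgam* to *Itgb2* was 1.30 and 1.17 in SYK WT and 1.10 and 0.743 in SYK KO, so the libraries were just apart, and adding the *Gm49368* counts to *Itgam* left them so at 1.31, 1.18, 1.12 and 0.765. *Itgal* to *Itgb2* was 0.0714 and 0.0628 in SYK WT and 0.0391 and 0.0519 in SYK KO. *Itgad* to *Itgb2* overlapped between the genotypes, as did *Itgal* to *Itgam*. The *Itgax* to *Itgam* ratio was 0.131 and 0.108 in SYK WT and 0.235 and 0.494 in SYK KO, with the SYK KO libraries far from each other.

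For the alpha4 pairs, the *Itga4* to *Itgb1* ratio was 0.00303 and 0.00334 in SYK WT and 0.0158 and 0.0169 in SYK KO, a 5.15-fold difference. The *Itga4* to *Itgb7* ratio was 0.114 and 0.156 in SYK WT and 0.256 and 0.231 in SYK KO, and *Itgb7* to *Itgb1* was 0.0265 and 0.0214, then 0.0618 and 0.0733. Per base of merged exon *Itga4* was the scarcer partner of both beta chains in all 4 libraries, where its merged exons of 13978 bases, the longest of the 10 genes, lower its value. For *Itgb7* this order rests on the division by length. Undivided, *Itga4* had 161 and 148 counts in SYK WT against 279 and 188 of *Itgb7*. In SYK KO it had 779 and 591 against 603 and 507.

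**Figure D3:**
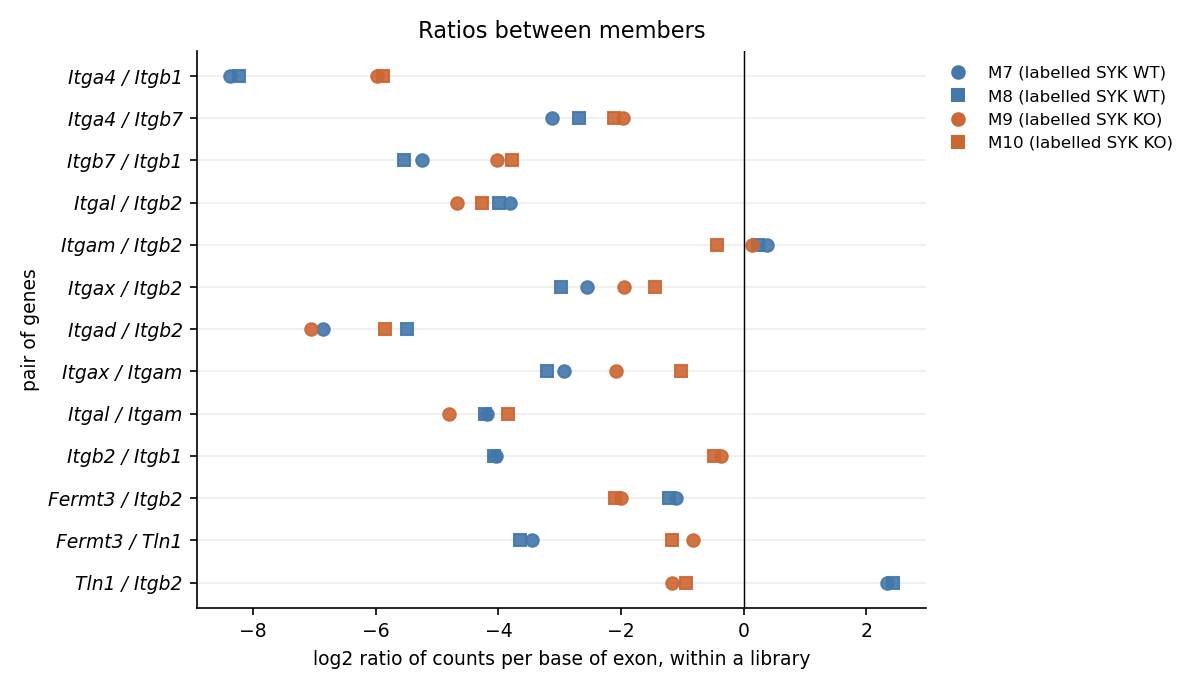
Ratios between 13 pairs of the 10 genes. The horizontal axis is the log2 ratio of counts per base of merged exon, each point is 1 library, blue for SYK WT and orange for SYK KO. *Itgb2* over *Itgb1* and *Tln1* over *Itgb2* show the widest gaps between blue and orange points, and *Itgad* over *Itgb2* and *Itgal* over *Itgam* are mixed.

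Each gene was also set against the macrophage and the pan-leukocyte markers of its own library. Neither list holds any of the 10 genes. Relative to the geometric mean of the 10 macrophage markers, both SYK KO libraries were above both SYK WT libraries for 5 genes (*Itgb2*, *Itgal*, *Itgam*, *Itgax* and *Fermt3*), a pattern seen in 3.33% of all genes tested, and below for 3 (*Itgb1*, *Itgb7* and *Tln1*), seen in 91.4%. Relative to the pan-leukocyte genes, 2 genes were above (*Itgb2* and *Itgax*), against 1.58% of all genes, and 5 were below (*Itga4*, *Itgb1*, *Itgb7*, *Fermt3* and *Tln1*), against 94.7%. *Itgax* moved most of those above, by 2.23 log2 units against the macrophage markers and 1.58 against the leukocyte genes. *Itgb2* was above by 1.16 and 0.51 units. *Itgam* was 0.71 units above against the macrophage markers and overlapped at 0.06 units against the leukocyte genes.

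In the edgeR fit with libraries scaled to the macrophage markers, *Itgb2* (log2 fold change 1.15, SE 0.52, adjusted p = 0.0314) and *Itgax* (2.27, SE 0.53, adjusted p = 4.25e-05) were called higher and *Itgb1* and *Tln1* lower. That scaling called 0.979% of all genes higher and 85.7% lower and moved the median of all genes to -2.62. Scaled to the pan-leukocyte genes, *Itgax* was the 1 member called higher (1.59, SE 0.37, adjusted p = 0.000163) and *Itgb1*, *Itgb7* and *Tln1* were called lower, where 0.523% of all genes were higher, 91.3% lower and the median was -3.27. Scaled by library size alone, the 8 genes were again called higher. The direction of *Itgb1* and *Tln1* therefore rests on the scaling, at 0.20 and 0.37 under TMM and at -0.33 and -0.16 under library size.

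**Figure D4:**
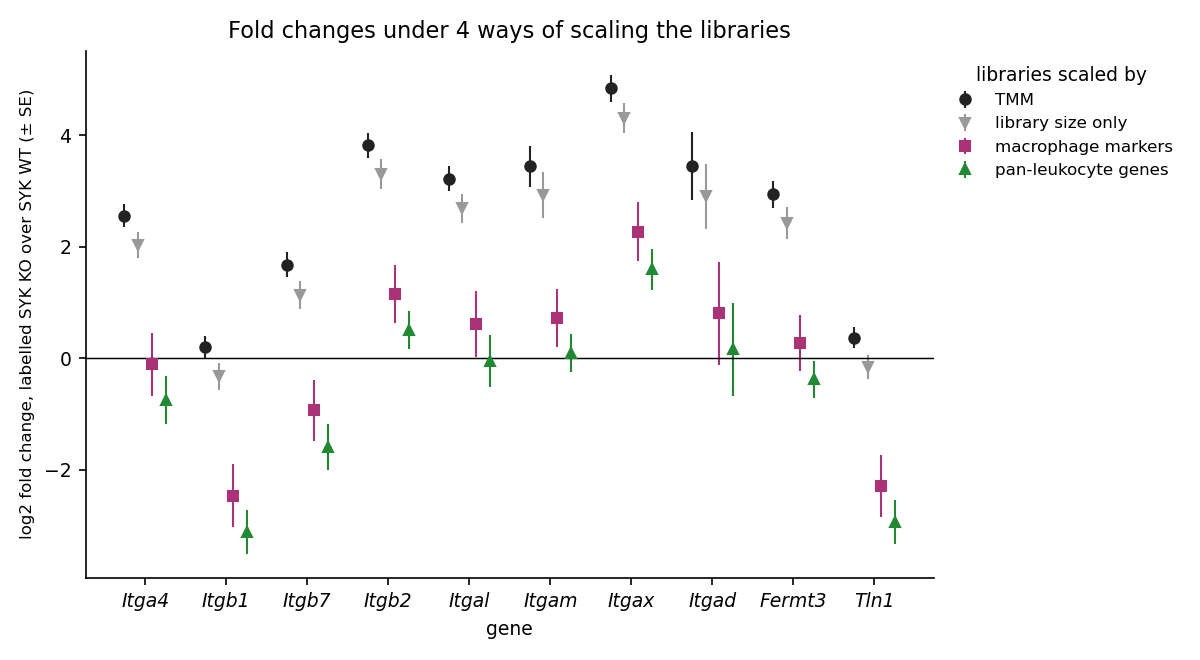
Log2 fold changes of the 10 genes (SYK KO over SYK WT, ± SE) with libraries scaled in 4 ways. Points above 0 are higher in the libraries labelled SYK KO. *Itgax* stays above 0 by more than its SE in all 4, *Itgb2* likewise, and under the pan-leukocyte scaling the other 8 genes lie between -3.11 and 0.16.

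The other genes of the pathway were taken as 5 lists of 72 genes, of which 68 were tested, and under TMM 31 were higher and 19 lower, beside the 22.7% and 16.7% of all genes. Scaled to the macrophage markers 1 was higher and 45 lower, and scaled to the pan-leukocyte genes 0 were higher (1 at an unadjusted p under 0.05) and 53 lower, so the directions below are those under TMM. Of the other integrin chains, 17 of 19 were tested, 2 were higher and 9 lower (median -0.71 on the log2 scale). The 2 that rose were *Itga9* (2.02, adjusted p = 0.00159) and *Itga6* (0.73, adjusted p = 0.0375), both named after their values were seen. *Itga10* and *Itga7*, collagen and laminin receptors of cartilage and muscle, fell most, by 4.05 (adjusted p = 0.000486) and 2.98 (adjusted p = 0.00114) on the log2 scale. *Itga5*, the fibronectin receptor chain, fell from 295 and 305 CPM to 120 and 111 CPM (log2 fold change -1.38, adjusted p = 0.00204). *Itgb5* and *Itgav*, which pair as a vitronectin receptor, fell by 0.71 (adjusted p = 0.020) and 0.79 (adjusted p = 0.0284), calls that both lost without M7 or without M8 (adjusted p up to 0.155 and 0.134), and *Itgb3* was not called at -0.30 (adjusted p = 0.498). *Itgb2l*, the closest relative of *Itgb2* and a neutrophil gene, had 0 counts in every library, which allows up to 3 counts. *Itgb6* and *Itgb2l* were the chains not tested.

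Genes of inside-out activation were mostly higher, with 9 of 13 tested higher and 2 lower (median 1.4). *Rap1b*, a Rap1 abundant in blood cells, was at 135 and 122 CPM in SYK WT and 526 and 415 CPM in SYK KO (log2 fold change 1.88, adjusted p = 0.00159). *Apbb1ip* (RIAM), which bridges Rap1 and talin, rose by 2.40 (adjusted p = 0.000674), and *Rasgrp2*, an exchange factor for Rap1, by 2.05 (adjusted p = 0.0043). The adaptors *Skap2* and *Fyb* (ADAP) rose most, by 3.44 (adjusted p = 0.000972) and 3.31 (adjusted p = 0.000486). *Fermt2* and *Tln2*, the kindlin and talin relatives used outside the blood, fell by 1.07 (adjusted p = 0.00448) and 0.96 (adjusted p = 0.0135), the latter not called without M7 (adjusted p = 0.114).

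Of the 7 genes of integrin restraint, 3 were higher and 2 lower (median 0.56), beside 22.7% and 16.7% of all genes tested. The Rap1 GTPase activators *Rap1gap2* and *Rap1gap* went opposite ways, at 2.80 (adjusted p = 0.00308) and -2.04 (adjusted p = 0.0239). *Rap1gap* lost its call without M8 (-1.43, adjusted p = 0.244), and *Rap1gap2* was at -0.48 under the pan-leukocyte scaling. All 21 genes of outside-in signalling were tested, of which 14 were higher and 4 lower (median 1.97). *Fgr*, a myeloid Src family kinase that acts with beta2 integrins, rose most of these. It was at 2.91 and 3.42 CPM in SYK WT and at 56.3 and 60.5 CPM in SYK KO (log2 fold change 4.2, adjusted p = 0.000486).

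Ligands were measured in the same RNA, where 3 of 10 were higher and 2 lower (median 0.39). These counts were close to the 22.7% and 16.7% of all genes tested and were not read as a result about the ligands. *Icam1*, a ligand of LFA-1 and Mac-1, was at 5.35 and 5.32 CPM in SYK WT and 51.7 and 40.2 CPM in SYK KO (log2 fold change 3.10, adjusted p = 0.000674). *Vcam1*, the ligand of alpha4 beta1, was at 81.6 and 46.7 CPM in SYK WT and 411 and 316 CPM in SYK KO (2.50, adjusted p = 0.00232). *Fn1* (fibronectin), also bound by alpha4 beta1, was at 5657 and 6836 CPM in SYK WT and 2598 and 2335 CPM in SYK KO (-1.34, adjusted p = 0.0118). *Icam2* (0.81, adjusted p = 0.204) and *Madcam1*, the ligand of alpha4 beta7 (-0.03, adjusted p = 0.966), were not called, and *Madcam1* did not exceed 2.29 CPM in any library.

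**Figure D5:**
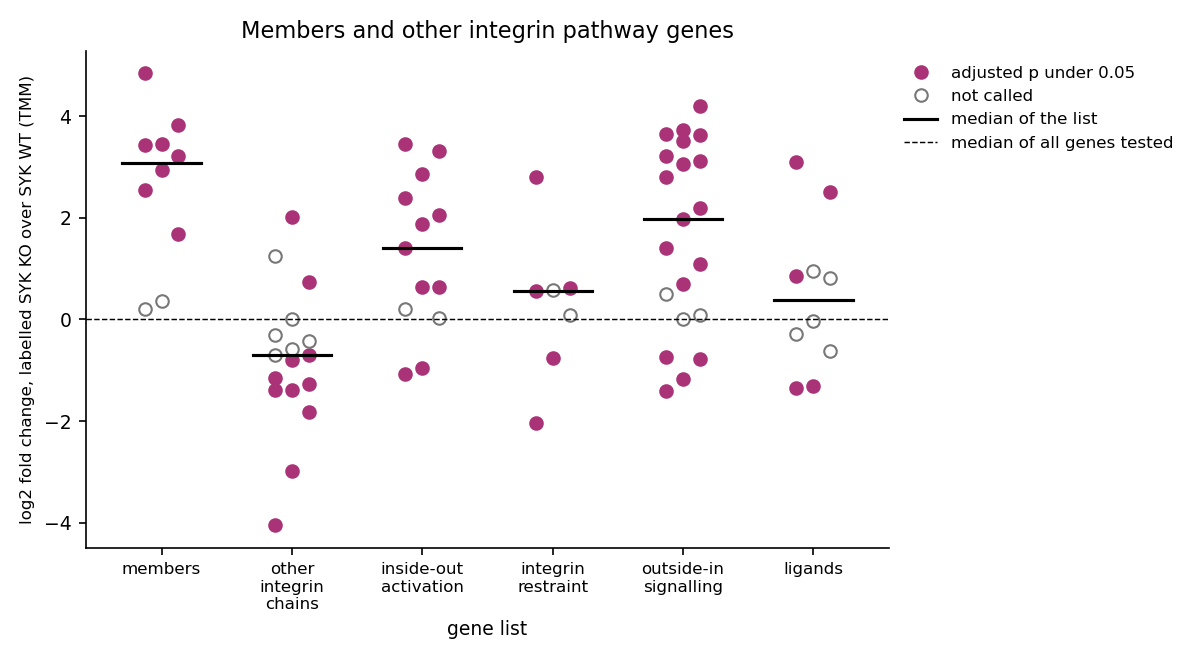
Log2 fold changes (SYK KO over SYK WT, TMM) of the 10 genes, labelled members, and of the tested genes of 5 other integrin lists. Filled points passed an adjusted p of 0.05, open points did not, solid bars are list medians and the dashed line is the median of all genes tested. The members have the highest median, 3.08, and the other integrin chains the lowest, -0.71.

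Markers of other leukocytes that carry these integrins moved too. Neutrophil markers, from cells rich in *Itgam* and *Itgb2*, were higher for 6 of 6 genes, from 29.4 and 42.6 CPM summed in SYK WT to 464 and 232 CPM in SYK KO. Of 5 monocyte markers 4 were higher, and these 4 summed to 18.8 and 21.3 CPM in SYK WT and 250.1 and 232.5 CPM in SYK KO. With *Vcan*, which was not called, the whole list was at 203 and 193 CPM and then 395 and 380 CPM. T cell markers were higher for 4 of 5 genes, which summed to 0.728 and 0.528 CPM in SYK WT and 6.16 and 7.51 CPM in SYK KO. With *Lck*, which was not called, the list was at 5.61 and 4.35 CPM and then 10.2 and 13.2 CPM, with *Cd3e* at 2 and 1 counts in SYK WT. For B cells 1 of 3 tested genes was higher, *Cd79b*, at 0.47 and 0.24 CPM in SYK WT and 6.9 and 5.2 CPM in SYK KO. The whole B cell list was at 1.60 and 1.06 CPM and then 8.92 and 8.0 CPM. For NK cells edgeR called 0 of 2, with 0 at an unadjusted p under 0.05 and 0 by DESeq2. Endothelial markers were lower for 3 of 6 genes, which summed to 60.7 and 60.2 CPM in SYK WT and 29.5 and 26.1 CPM in SYK KO. The whole endothelial list was at 187 and 189 CPM and then 145 and 132 CPM. Among the neuroblastoma markers, *Th* and *Dbh* were at 0 in every library and edgeR called 0 of the 2 tested (1 at an unadjusted p under 0.05, and 1 by DESeq2). *Hand2*, which held most of the level of this list, was at 262 and 301 CPM in SYK WT and 178 and 286 CPM in SYK KO. It was not called (log2 fold change -0.28, adjusted p = 0.418 by edgeR). The share of each cell type in the integrin counts was not tested.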

How the data were processed

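Reads were aligned by the authors to mm10 (STAR) and quantified by Salmon within bcbio. The table they deposited holds raw counts, whole numbers for each Ensembl gene, without normalization. The submitters' processing notes list STAR 2.6.1d, Salmon 1.4.0, SAMtools 1.9, Picard 2.26 and MultiQC 1.11. How Salmon's estimates became whole numbers is not given in the sources used here, and Salmon can divide reads among genes that share sequence. Library totals ran from 20755886 (M8) to 23518045 (M9) counts. Within a genotype, libraries differed beyond sampling noise (chi-square per degree of freedom 50.6 in SYK WT and 168 in SYK KO).

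Counts were analysed in R 4.3.3 with edgeR 4.0.16 (filterByExpr, TMM, glmQLFit and glmQLFTest, not robust) on all 4 libraries without covariates, with Benjamini-Hochberg adjustment over 16451 genes and a threshold of 0.05. TMM factors were 1.22, 1.19, 0.877 and 0.787. SE is the log2 fold change over the root of F. Positions and merged exon lengths came from GENCODE M21 on GRCm38, which matched 54495 of 54532 genes, and 31-base words were counted in its transcripts. Promoters were from RefSeq. The code was tested on simulated data.

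The members and all gene lists were chosen with earlier results of these data known. Genes named were the 10 members, 16 pathway genes set by role (*Syk*, *Itgb2l*, *Itga5*, *Itgav*, *Itgb3*, *Itgb5*, *Apbb1ip*, *Rap1b*, *Rasgrp2*, *Fermt2*, *Tln2*, *Icam1*, *Icam2*, *Vcam1*, *Fn1* and *Madcam1*) and, in each list, the 2 with the largest change among those called with a mean of at least 1 CPM. Markers and neighbors of the members are named beside them. Some genes that the rule or the lists hold are not reported here by name. The marker lists were macrophage, pan-leukocyte, monocyte, neutrophil, dendritic cell, T cell, B cell, NK cell, fibroblast, endothelial and neuroblastoma genes. Alternatives were DESeq2 size factors, library size only, scaling to the macrophage or pan-leukocyte genes, DESeq2 1.42.0 (Wald test), a filter of 1 count in all or of 10 counts in each library, leaving out mitochondrial and rRNA-like genes, and leaving out each library. Summing *Itgam* and *Gm49368* was added after seeing the data.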

Additional observations from a re-analysis of the deposited data

How the results depend on the processing

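The 8 members called higher kept that call with DESeq2 size factors or its Wald test, with library size only, with every gene counted at least once, without mitochondrial and rRNA-like genes and with *Itgam* and *Gm49368* summed (chosen after seeing the data). With at least 10 counts in every library *Itgad* was not tested and the other 7 kept it. Leaving out a library, with the lone library assumed to vary like the others, gave 8 members higher and 0 lower each time. The number of pathway genes called higher was 22 to 34 and lower 9 to 22 (11 without M7, 9 without M8), and 11 to 13 of 13 ratios did not overlap. Counts moved under the marker scalings. With the macrophage markers 2 members were higher and 2 lower, and 1 pathway gene higher and 45 lower. With the pan-leukocyte genes 1 member was higher and 3 lower, and 0 pathway genes higher (1 at an unadjusted p under 0.05) and 53 lower. Of the members set against marker lists within a library, 5 were above with the macrophage and 2 with the pan-leukocyte list.

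Log2 fold changes that reversed with the macrophage and then the pan-leukocyte scaling were *Itga4* -0.11 and -0.75, *Itgb1* -2.47 and -3.11, *Itgb7* -0.94 and -1.60, *Tln1* -2.29 and -2.94, *Apbb1ip* -0.24 and -0.90, *Rap1b* -0.79 and -1.43, *Rasgrp2* -0.60 and -1.25, *Icam2* -1.95 and -2.56, and *Vcam1* -0.10 and -0.77. With the pan-leukocyte scaling alone *Itgal* (-0.051), *Fermt3* (-0.38), *Syk* (-0.50), *Icam1* (-0.21) and *Rap1gap2* (-0.48) reversed, and with library size *Itgb1* (-0.33) and *Tln1* (-0.16). Over the libraries left out *Itgb1* ran from -0.064 to 0.37, *Itgb3* from -0.86 to 0.023 and *Madcam1* from -0.41 to 0.22. *Itgav* and *Itgb5* lost their call without M7 or M8, *Tln2* without M7 and *Rap1gap* without M8, while *Itgb3* gained one without M10 (-0.86) and *Icam2* without M10 (1.27). The cause was not tested. No paired analysis was possible because the labels give the genotypes no shared replicate numbers. With 2 libraries per genotype the calls rest on the spread modelled across genes, and *Itgad* rests on 9 and 19 counts in SYK WT.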
